A study of Mus musculus with 2 samples.

Results

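A module of 35 interferon-stimulated genes was followed across the tumour, myeloid and T cells of a mouse melanoma. The members were chosen by name as genes of the type I interferon response, and all 35 had a row among the 27635 genes of the count table.

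Type I interferons (interferon beta and the interferon alphas) bind a receptor made of Ifnar1 and Ifnar2 and signal through the kinases Jak1 and Tyk2. Stat2 and Irf9 then enter the nucleus in a transcription factor complex, which binds the interferon-stimulated response element of promoters. The genes it switches on sense foreign nucleic acids, block translation, degrade RNA and, through Usp18, dampen the receptor. Many of them also answer to interferon gamma, a product of activated T cells.

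The cells came from subcutaneous tumours of B16F10, a transplantable pigmented mouse melanoma line, taken 14 days after transplantation. Cells carrying CD3 were enriched with magnetic beads, and WT and Nr4a KO cells were marked with 6 hashtag antibodies (A0301 to A0306) and loaded into 1 capture of about 20000 cells. The series title speaks of NR4a1/2 deletion. How the deletion was driven, and the number, age and strain of the mice, are not given in the labels. No label ties a hashtag to a genotype or to 1 animal, so hashtags are samples of unknown group, no genotype comparison was made and no p-value is given. Levels are CPM, the summed counts of a class scaled to a common total. Differences are log2 ratios of these sums after 5 counts were added to each.

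After filtering, 11318 barcodes with 4142 to 892142 counts (median 26436) were kept. Classes were gated on markers at 5 or more counts, and 209 barcodes that passed 2 gates were left out. This gave 1452 melanoma cells, 1245 macrophages, 87 dendritic cells, 113 neutrophils, 3985 CD8 T cells and 981 CD4 T cells. Among the markers, Dct was at the gate in 99.0% of melanoma cells, C1qb in 85.4% of macrophages, Flt3 in 73.6% of dendritic cells, S100a8 in 97.3% of neutrophils and Trbc2 in 94.1% of CD8 T cells. Other markers of the same lists were rare. Tyr was at the gate in 1.86% of melanoma cells and Siglech in 4.60% of dendritic cells. Xcr1 was at the gate in 11.5% of dendritic cells and 10.2% of macrophages, so it hardly separated these classes. The T cell gate was also passed by 63.5% of macrophages, 70.1% of dendritic cells, 17.6% of melanoma cells and 7.96% of neutrophils. The gate is a fixed count and depth differed, so these shares do not rank the classes by T cell reads. As summed CPM the T cell markers stood at 2066 in macrophages, 1721 in dendritic cells, 1301 in neutrophils and 342 in melanoma cells. Median counts per barcode ran from 9512 in neutrophils to 147698 in melanoma cells, with 70856 in macrophages and 28868 in CD8 T cells.

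The members lie on 15 chromosomes of GRCm38.p6, and related genes lie side by side. Ifit2, Ifit3, Ifit3b and Ifit1 lie between positions 34550550 and 34650009 of chromosome 19. Rsad2 (chr12:26442743-26456452) neighbours Cmpk2 (chr12:26469117-26479837), and the 5 members on chromosome 5 are Oas or Oas-like genes. RefSeq lists Mx1 and Mx2 as transcribed pseudogenes in this assembly, so their counts report transcription.

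The response element can be read in the promoters of several members. RefSeq promoters of GRCm38.p6, from 250 bases before to 50 bases after each start, matched 26 of the 35 members. Dhx58, Parp14, Zbp1, Usp18, Ifi27l2a, Rtp4, Mx2, Mx1 and Oas2 were not matched. The core of the element, GAAA and GAAA with any 2 bases between them, searched on both strands with overlaps allowed, was present for 14 of the 26 (53.8%), against 3.99% of 27025 genes with a promoter of the same length. The pattern TTCNNGGAA, a form of the gamma-activated site, was present for 4 of the 26 (15.4%), against 5.599% of genes. Other forms of this site were not searched. The stretches shown belong to members whose levels are described by class or hashtag, with each match in capitals, 5′ to 3′ along the gene. They lie at chr4:156200855-156200916 (Isg15, minus strand), chr19:34640765-34640833 (Ifit1, plus strand), chr12:26456543-26456592 (Rsad2, minus strand), chr8:71537567-71537622 (Bst2, minus strand) and chr10:128270256-128270305 (Stat2, plus strand), outside the annotated span of each gene.
Isg15: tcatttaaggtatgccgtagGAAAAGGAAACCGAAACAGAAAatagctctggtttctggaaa
Ifit1: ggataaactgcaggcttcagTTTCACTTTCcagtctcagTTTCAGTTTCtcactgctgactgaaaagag
Rsad2: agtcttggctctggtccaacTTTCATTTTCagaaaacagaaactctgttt
Bst2: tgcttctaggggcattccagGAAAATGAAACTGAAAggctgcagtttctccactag
Stat2: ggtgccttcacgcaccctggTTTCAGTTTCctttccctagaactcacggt
Isg15 carries 3 overlapping matches, Ifit1 and Bst2 carry 2 each, and Rsad2 and Stat2 carry 1 each. A match describes the letters only. The corresponding stretches of Ifit3 and Ifit3b are equal at 84 of 84 bases. These genes are close copies, so reads may be split between them by the counting and each value alone is uncertain.

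Summed over the 35 members, the module was lowest in melanoma cells, where its hashtags also lay farthest apart. It stood at 1716 CPM in melanoma cells (1029 to 3633 over 5 hashtags, median 1196) and at 3119 CPM in macrophages (2049 to 3853 over 6, median 3084). It stood at 2237 CPM in CD8 T cells (1958 to 2895 over 6, median 2203) and 3083 CPM in CD4 T cells (2237 to 3347 over 5, median 3206). The hashtag ranges of these 4 classes overlap. Dendritic cells stood at 2623 CPM and neutrophils at 3947 CPM. Neutrophils had no hashtag with 20 cells. Abundant members weighed on these sums, and Ifi27l2a made 1136 CPM of the sum in CD4 T cells. Without Bst2 and Ifi27l2a the sum was 1080 CPM in melanoma cells, 2390 in macrophages, 1574 in CD8 T cells and 1816 in CD4 T cells. Dendritic cells then stood at 1825 CPM and neutrophils at 3822 CPM.

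**Figure D1:**
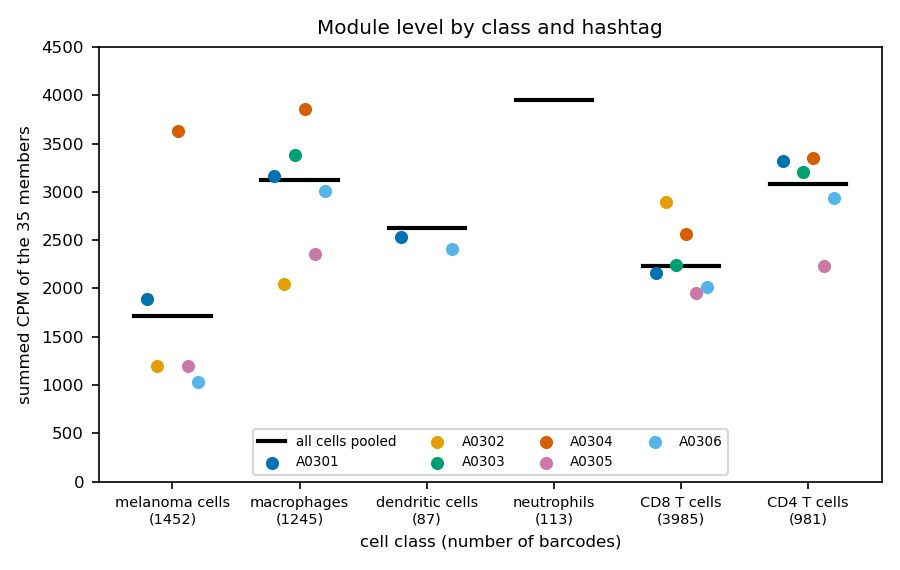
Summed CPM of the 35 members (y axis) in 6 cell classes (x axis, with the number of barcodes). Points are hashtags with at least 20 barcodes and black lines the pooled class; A0304 lies at 3633 CPM in melanoma cells, where the other 4 hashtags lie between 1029 and 1891 CPM.

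Member by member, 16 of 35 were highest in neutrophils (14.9% of 10696 genes), 8 in macrophages (8.09%), 4 in melanoma cells, 4 in dendritic cells, 3 in CD4 T cells and 0 in CD8 T cells. The share of all genes highest in a class was computed for neutrophils and macrophages only. Melanoma cells gave the lowest level of 16 members (24.6% of genes). The neutrophil levels rest on few barcodes. The 10 neutrophils with the most member counts held 44.9% of all member counts, and without them the module stood at 2714 CPM; 10 macrophages left out in the same way gave 2968 CPM. With neutrophils set aside, 17 members were highest in macrophages (11.5% of genes). The median barcode had 9512 counts in neutrophils and 70856 in macrophages. By the share of barcodes with 2 or more counts of a member after thinning each to 10000 counts, a comparison added after seeing the data, the order of the leading classes turned: 12 members were highest in macrophages (12.7% of genes) and 10 in neutrophils (9.55%).

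**Figure D2:**
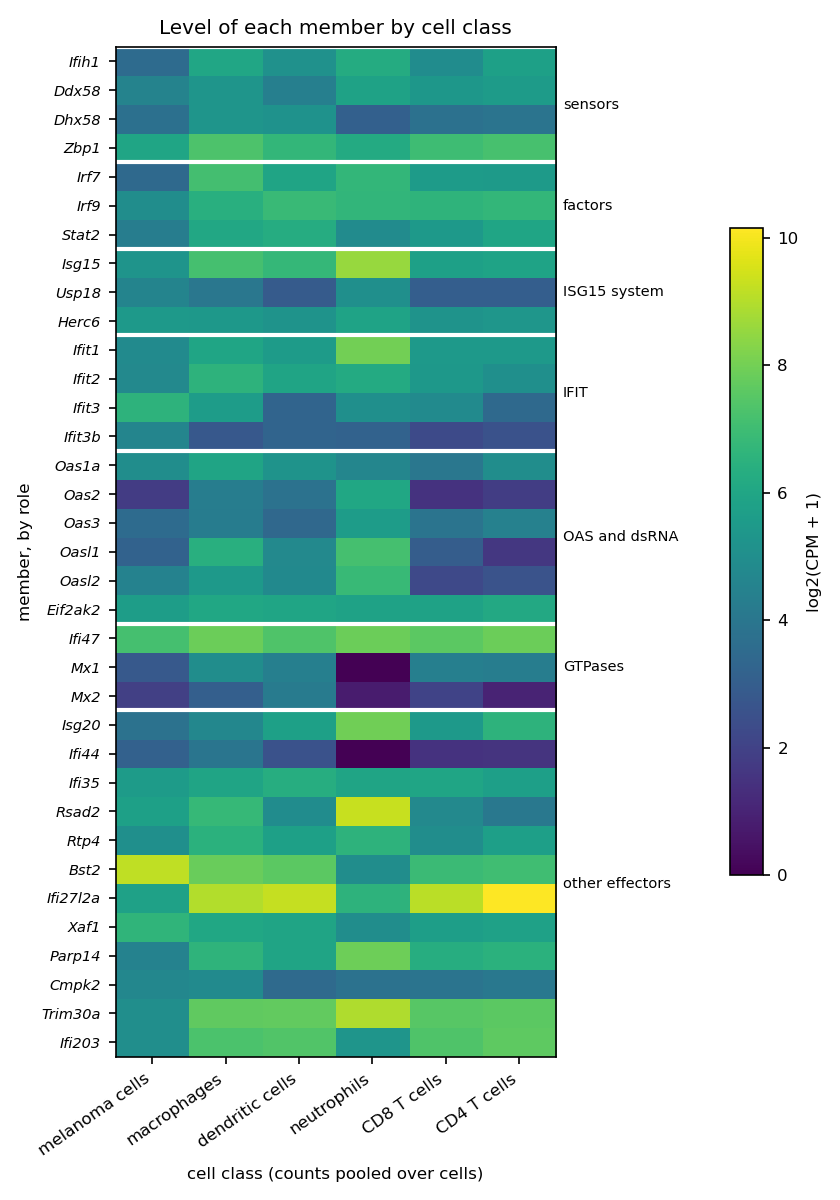
Heat map of log2(CPM + 1) for each member (rows, grouped by role) in 6 cell classes (columns), with counts pooled over barcodes. Bst2 is brightest in melanoma cells, Rsad2 in neutrophils and Ifi27l2a in CD4 T cells.

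Among the sensors, Ifih1 (MDA5, which detects long double-stranded RNA) stood at 74.8 CPM in neutrophils, 63.6 in macrophages, 53.7 in CD4 T cells, 33.9 in dendritic cells, 29.7 in CD8 T cells and 10.7 in melanoma cells. Dhx58 (LGP2, a regulator of the RNA sensors) stood at 38.3 CPM in macrophages and 34.97 in dendritic cells and at 7.55 to 14.1 CPM in the other 4 classes. Both were lower in melanoma cells than in macrophages. Ddx58 (RIG-I) ranged from 19.96 CPM in dendritic cells to 56.3 in neutrophils, and Zbp1, a sensor of Z-form nucleic acids, from 62.4 CPM in melanoma cells to 157 in macrophages.

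Irf7, the factor that amplifies interferon alpha transcription, stood in macrophages at 121, 71.5, 193, 164, 84.5 and 90.2 CPM in hashtag order from A0301 to A0306. In melanoma cells it stood at 9.71, 12.01, 15.97, 7.07 and 5.46 CPM in hashtag order from A0301 to A0306 (A0303 left out). The ranges do not overlap, and macrophages were higher. Irf9 and Stat2, subunits of the complex that binds the response element, were both lowest in melanoma cells and highest in dendritic cells, Irf9 at 30.6 and 117 CPM and Stat2 at 18.5 and 76.6 CPM.

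Isg15, the ubiquitin-like protein that is attached to new proteins, stood at 388 CPM in neutrophils, 140.2 in macrophages, 107 in dendritic cells, 58.5 in CD4 T cells, 53.0 in CD8 T cells and 37.6 in melanoma cells. Its protease Usp18 stood at 32.2 CPM in neutrophils, 23.1 in melanoma cells and 15.3 in macrophages and at 7.23 CPM in CD8 T cells. Herc6, the ligase that attaches Isg15 in mice, varied little, from 35.7 CPM in CD8 T cells to 58.3 in neutrophils.

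IFIT proteins bind foreign RNA and block its translation, and the classes that led differed within the family. Ifit3 stood at 93.0 CPM in melanoma cells, 48.4 in macrophages and 8.53 in dendritic cells, and Ifit3b at 23.3 CPM in melanoma cells and at most 8.53 CPM elsewhere. The Ifit3 median over hashtags was 51.0 CPM in melanoma cells and 43.4 in macrophages. Its log2 ratio between these classes ran from -0.61 to 1.92 over 5 hashtags. Ifit2 was highest in macrophages (93.4 CPM) and Ifit1 in neutrophils (250.4 CPM, at the gate in 14 of 113 cells).

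Oas enzymes make the second messenger that activates RNase L, and Eif2ak2 (PKR) halts translation on double-stranded RNA. Oasl1 stood at 139.9 CPM in neutrophils, 83.0 in macrophages, 26.3 in dendritic cells, 8.03 in melanoma cells, 7.07 in CD8 T cells and 2.09 in CD4 T cells. Oasl2 stood at 44.6 CPM in macrophages and 3.68 CPM in CD8 T cells, and Oas2 at 18.6 and 1.78 CPM. The myeloid classes were thus above both T cell classes for these 3 genes. Eif2ak2 was nearly level, from 48.9 CPM in melanoma cells to 68.5 in CD4 T cells.

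Among the GTPases, Ifi47 ranged from 144 CPM in melanoma cells to 235 in neutrophils. Mx1 stood at 30.3 CPM in macrophages and had 0 counts in neutrophils, at least 14.7-fold lower with 3 counts over the pooled class (2.06 CPM) as the floor. Ifi44, an effector of unclear function, also had 0 counts there, at least 7.005-fold below macrophages.

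The other effectors held the members with the largest levels. Bst2 (tetherin, which holds budding virus at the cell surface) stood at 581 CPM in melanoma cells, 229 in macrophages, 193 in dendritic cells, 131 in CD4 T cells, 119 in CD8 T cells and 30.2 in neutrophils. Ifi27l2a stood at 1136 CPM in CD4 T cells, 604 in dendritic cells, 544 in CD8 T cells, 499 in macrophages, 94.7 in neutrophils and 54.8 in melanoma cells. Melanoma cells were thus highest for Bst2 and lowest for Ifi27l2a. Rsad2 (viperin, which makes a chain-terminating nucleotide from the product of its neighbour Cmpk2) stood at 633 CPM in neutrophils, 109 in macrophages and 54.2 in melanoma cells, and 3 of 113 neutrophils held more than 50% of its counts there. Isg20, an exonuclease, stood at 248 CPM in neutrophils, 94.0 in CD4 T cells and 13.3 in melanoma cells.

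The remaining members also differed in which class led. Xaf1, a partner of the apoptosis inhibitor XIAP, ranged from 30.9 CPM in neutrophils to 98.0 in melanoma cells. Trim30a, a ubiquitin ligase, ranged from 31.6 CPM in melanoma cells to 497 in neutrophils, and Parp14, which attaches ADP-ribose to proteins, from 21.9 CPM in melanoma cells to 238 in neutrophils. Melanoma cells were thus lowest for the latter pair. Ifi203, of the family of DNA-binding HIN proteins, ranged from 31.1 CPM in melanoma cells to 198 in CD4 T cells, and Rtp4 from 30.6 CPM in CD8 T cells to 92.6 in neutrophils. Ifi35 ranged from 47.2 CPM in melanoma cells to 78.3 in dendritic cells and Cmpk2 from 10.2 CPM in dendritic cells to 28.4 in macrophages. Of the Oas genes, Oas1a ranged from 15.2 CPM in CD8 T cells to 60.2 in macrophages and Oas3 from 9.72 CPM in dendritic cells to 48.0 in neutrophils, and Mx2 from 0.686 CPM in neutrophils to 17.7 in dendritic cells.

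Melanoma cells of hashtag A0304 held more of nearly every member than those of the other 4 hashtags. Of 35 members, 34 were highest there. Among the 32 with a mean of at least 5 CPM it was 32, against 27.6% of 10317 genes, and 10 of these were more than 2 times the next hashtag, which held for 2.31% of genes. Oas2 was the member highest elsewhere, at 3.08 CPM in A0301 and 2.43 CPM in A0304. A0304 had 56 melanoma cells, the fewest of the 5, and A0303 had under 20 and gave no value.

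Ifit3 in melanoma cells stood at 87.0, 39.6, 260.3, 51.0 and 25.6 CPM in hashtag order from A0301 to A0306 (A0303 left out). Zbp1 stood at 67.6, 41.7, 179, 31.6 and 29.3 CPM and Ifi47 at 201, 76.1, 450.4, 43.6 and 42.6 CPM in the same hashtags. For each of these genes A0304 was highest, A0301 next and A0306 lowest. Herc6 stood at 54.7, 29.8, 117, 24.4 and 19.4 CPM, Isg15 at 39.9, 27.9, 68.2, 27.3 and 21.9 CPM and Bst2 at 621, 486, 1028, 484 and 438 CPM, in the same top and bottom order. Trim30a stood at 33.7, 11.2, 93.8, 13.9 and 15.0 CPM, with A0304 again highest.

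**Figure D3:**
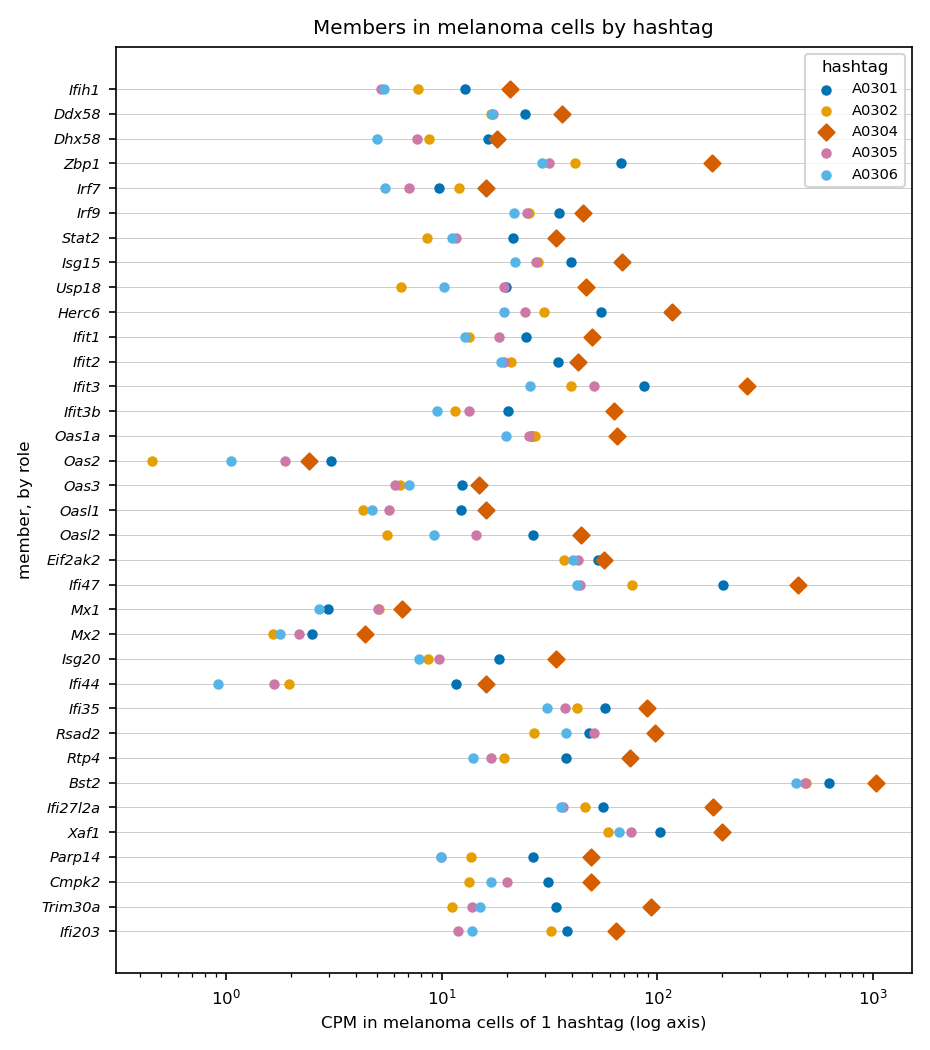
CPM of each member (y axis, by role) in melanoma cells of 5 hashtags (x axis, log scale). Diamonds are A0304 (56 cells), which holds the highest value of 34 of the 35 members.

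The barcode with the most Ifit3 counts held 26.1% of them in A0304, and Ifit3 stood at 203 CPM without it; Zbp1 stood at 166 CPM without its own. The median melanoma cell of A0304 held 2616 CPM of all members, against 711 to 1087 in the other hashtags. T cell markers moved with the module, at 881 CPM in A0304, 404 in A0301 and 116 to 194 in the other 3. Without barcodes that passed the T cell gate these markers stood at 18.4 to 24.8 CPM in all 5 hashtags, and the module at 3584 CPM in A0304 (38 cells) and 1012 to 1927 CPM in the others. In those cells 32 of 35 members were highest in A0304. The share of all genes highest in A0304 was not computed for those cells. The next values cover all melanoma cells, including those that passed the T cell gate, and were not computed without them. Ifng stood at 85.4 CPM in A0304 and 7.74 to 34.5 CPM in the others, and 20 genes linked to interferon gamma summed to 8391 CPM against 1333 to 3937. Their part in the module level was not tested.

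In macrophages 15 of 35 members were highest in A0304 (16% of genes) and 11 in A0303 (13.6%). The summed module was lowest in A0302, at 2049 CPM in 65 macrophages. Oasl1 stood at 40.9, 52.1, 110.1, 195, 24.5 and 54.0 CPM in hashtag order from A0301 to A0306. Ifit2 stood at 89.2, 32.3, 113, 146, 41.6 and 68.1 CPM in the same order. Both were highest in A0304 and next in A0303. These hashtags also held the largest shares of Cxcl9-positive, Arg1-negative macrophages, 64.6% and 68.97%, against 18.5% to 35.4% in the others. T cell markers ranged from 1576 to 2932 CPM, highest in A0304, and their part was not tested.

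In CD8 T cells the leading hashtag changed when 1 barcode was left out. With it, 12 of 30 members were highest in A0302 (23.2% of genes), whose module stood at 2895 CPM against 1958 to 2565 in the others. Rsad2 stood at 304.4 CPM there and 7.99 to 42.1 CPM elsewhere. The barcode held 20.02% of the member counts of A0302 and 91.5% of those of Rsad2. Without it, a choice made after seeing the data, 5 of 30 members were highest in A0302 (23.1% of genes) and 11 in A0304 (13.1%), the module of A0302 stood at 2357 CPM, and Rsad2 stood at 26.3 CPM, inside the range of the other hashtags.

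Between classes, a gene with a mean of at least 5 CPM was examined, and called where its log2 ratio was at least 1 in size with 1 sign in every hashtag that had 20 cells on both sides. The same rule over all genes gives the share printed beside each count of the main setting. This share was not computed where cells, hashtags or scaling were changed, so those counts have no background. The comparisons against macrophages share those cells. Scaling by TMM would shift every ratio; the log2 factor, which is subtracted, was -0.16 for macrophages against CD8 T cells, -0.13 for melanoma cells, -0.21 for neutrophils and 0.11 for the Tcf7 and Havcr2 poles. Members below 5 CPM and so not examined were Ifit3b against CD8 T cells, Mx2 for neutrophils, Ifit3b for the Cxcl9 and Arg1 states, Ifit3b, Ifi44, Mx2, Oas2 and Oasl2 for the Tcf7 and Havcr2 poles and Ifit3b, Ifi44, Mx2, Oas2 and Oasl1 for the Foxp3 comparison.

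Macrophages held more than CD8 T cells of 9 of 34 members (26.5%; 11.8% of all genes) and less of 0 (7.04%). The called members were Oasl2 (3.59), Oasl1 (3.55), Oas2 (3.36), Ifi44 (3.00), Oas1a (1.99), Dhx58 (1.59), Irf7 (1.55), Ifih1 (1.10) and Usp18 (1.08), which include 4 of the 6 Oas and double-stranded RNA genes. The lowest, without a call, were Isg20 (-0.81), Irf9 (-0.19) and Ifi27l2a (-0.12); the sign of Ifi27l2a turns under TMM scaling, whose log2 factor was -0.16. Oasl2 stood at 48.4, 26.8, 41.0, 48.4, 43.3 and 51.3 CPM in macrophages of A0301 to A0306 and at 5.55, 4.39, 8.71, 3.09, 4.22 and 1.92 CPM in CD8 T cells, with no overlap. The summed module ratio was 0.48, from -0.50 in A0302 to 0.60, so the sum was not higher in every hashtag; in A0302 the barcode named above is among the CD8 T cells. The median member stood at 0.70 and the median gene at -0.19. T cell markers stood at 2066 CPM in these macrophages and 5544 in CD8 T cells. With barcodes of 2 cell types left out (455 macrophages, 2420 CD8 T cells), 16 members were higher and 1 lower, and without A0302 14 were called.

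Melanoma cells held less than macrophages of 20 of 35 members (57.1%; 20.2% of all genes) and more of 2 (22.3%). All 3 factors, 3 of 4 sensors and 4 of 6 Oas and double-stranded RNA genes were among the lower. The lowest were Irf7 (-3.74), Oasl1 (-3.37) and Ifi27l2a (-3.19). The highest were Ifit3b (1.99), Bst2 (1.34) and Ifit3 (0.94), of which Ifit3 was not called. The summed ratio was -0.86, from -1.55 to -0.085 over 5 hashtags. In A0304 the sums were nearly level, at 3633 CPM in melanoma cells and 3853 in macrophages.

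Dendritic cells held less than macrophages of 5 of 35 members (14.3%; 8.76% of all genes), Ifit3 (-2.37), Rsad2 (-1.86), Oasl1 (-1.61), Irf7 (-1.16) and Usp18 (-1.07), and more of 1 (7.8%), Isg20 (1.13). Mx2 (1.30) and Ifit3b (0.67) were also among the highest and were not called. The summed ratio was -0.25, and -0.32 in each of the 2 hashtags with 20 dendritic cells. Without the 5 barcodes with most member counts on each side 10 members were called, all lower.

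Neutrophils, compared by size alone, held more than macrophages of 10 of 34 members (29.4%; 17.1% of all genes) and less of 9 (26.5%; 34.6%). TMM scaling gave 11 and 6. The highest were Isg20 (3.35), Rsad2 (2.54) and Ifit1 (2.03), and the lowest with any counts Bst2 (-2.77), Ifi27l2a (-2.35) and Ifi203 (-1.89). Mx1 and Ifi44, with 0 counts, have only the bounds given above. Macrophage markers stood at 3592 CPM in neutrophils, of which Cd14 made 3388 CPM, while C1qa stood at 7.55 CPM, against 1829 in macrophages. T cell markers stood at 1301 CPM in neutrophils and 2066 in macrophages, and melanoma markers at 374 and 151 CPM. The part of such reads was not tested. The summed ratio of 0.34 was 0.019 without the 5 barcodes with most member counts on each side.

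**Figure D4:**
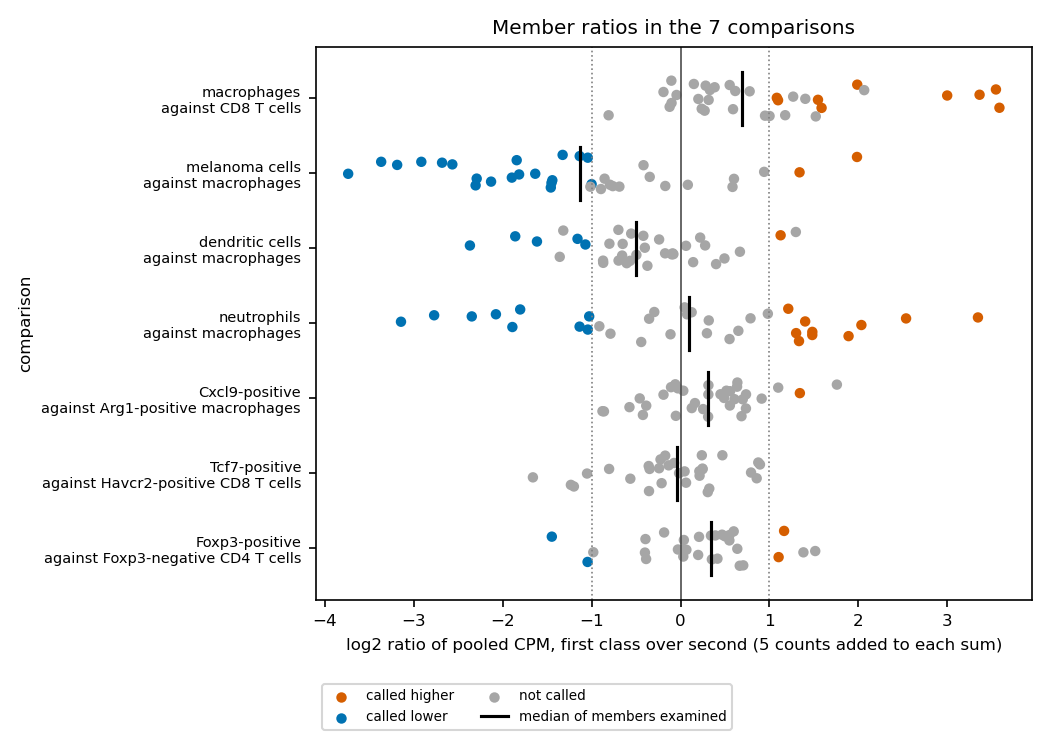
Log2 ratio of each member examined (points, x axis) in the 7 comparisons (y axis), first class over second, with the median of the members as a black line; Mx1 and Ifi44, with 0 counts in neutrophils, are drawn with the 5 added counts. Called members are coloured; the median lies at -1.13 for melanoma cells against macrophages and at 0.70 for macrophages against CD8 T cells.

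Among macrophages, Cxcl9-positive, Arg1-negative cells (a state linked to interferon gamma) were set against Arg1-positive, Cxcl9-negative ones. Herc6 alone of 34 members was called, higher at 1.34 (2.45% of all genes higher, 3.76% lower). Herc6 stood at 36.8, 48.8 and 69.4 CPM in Cxcl9-positive cells of A0301, A0305 and A0306 and at 28.6, 15.1 and 5.02 CPM in Arg1-positive ones, with no overlap. Ifi44 (1.76) and Ifit3 (1.10) were also high, and Rsad2 (-0.88), Mx2 (-0.86) and Oas2 (-0.57) were lowest, all without a call. The summed ratio was 0.21 and turned sign between hashtags, from -0.52 to 1.08. Of the 20 genes linked to interferon gamma 12 were called higher; the list holds Cxcl9, a gene of the gate. Other gates, per-cell means or thinning gave 2 to 4 calls, leaving out the cells of A0301, A0304 or A0306 gave 2, 2 and 3, and leaving out barcodes of 2 cell types, with 1 hashtag left, gave 14.

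In CD8 T cells, Tcf7-positive, Havcr2-negative cells (the Tcf7 pole) were set against Havcr2-positive, Tcf7-negative ones (the Havcr2 pole). Beyond the CD8 T cell gate no other marker was required, so neither pole is shown to be a stage of exhaustion. The comparison gave 0 calls among 30 members (4.95% of all genes higher, 2.64% lower). The module stood at 2064 and 2171 CPM, a ratio of -0.073 that ran from -0.075 to 0.32 over 4 hashtags. The highest members were Oas3 (0.89), Irf7 (0.87) and Rtp4 (0.86) and the lowest Rsad2 (-1.66), Usp18 (-1.23) and Oasl1 (-1.20). Without A0301, A0305 or A0306 there was 1 call each. The absence of calls does not show that the poles are alike.

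Foxp3-positive CD4 T cells, which are regulatory T cells, held more of the module than Foxp3-negative ones in each of 3 hashtags, with a pooled ratio of 0.45 and a range of 0.23 to 0.76. Ifi27l2a stood at 1446 CPM in the former and 928 CPM in the latter. Without Bst2 and Ifi27l2a the pooled ratio was 0.34. Of 30 members 2 were called higher (6.67%; 3.39% of all genes), Oas1a (1.17) and Ifit2 (1.10), and 2 lower (3.3%), Oas3 (-1.45) and Ifit1 (-1.05). Oas1a stood at 31.5, 35.02 and 61.5 CPM in Foxp3-positive cells of A0301, A0305 and A0306 and at 19.8, 11.8 and 7.04 CPM in Foxp3-negative ones. Oas3 ran the other way, at 7.52, 3.89 and 10.98 against 30.2, 11.3 and 26.995 CPM. Oas1a and Oas3 had opposite signs here. With 2 calls of 30 on each side, against 3.39% and 3.3% of all genes, the counts do not set the module or this family apart. Rsad2 (1.52) and Isg20 (1.38) were the highest and Ifit3 (-0.98) was among the lowest, without a call. B cell markers stood at 1040 CPM in Foxp3-negative and 28.8 CPM in Foxp3-positive cells, and median counts per barcode were 20718 and 33823; their part was not tested. At a gate of 10 counts 0 members were called.

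Because depth differed between classes, members were also counted per barcode after thinning each to 10000 counts, with a member present at 2 or more counts. With exact 95% binomial intervals, which cover counting error only, 5 or more members were present in 57.7% of 1210 macrophages (54.8 to 60.5), 48.8% of 86 dendritic cells (37.9 to 59.9), 39.3% of 907 CD4 T cells (36.1 to 42.5), 33.3% of 51 neutrophils (20.8 to 47.9), 30.2% of 3776 CD8 T cells (28.8 to 31.7) and 20.8% of 1272 melanoma cells (18.6 to 23.2). Before thinning the shares were 77.1% in macrophages, 54.6% in melanoma cells and 38.8% in CD8 T cells, and 62 of 113 neutrophils were too shallow to enter. Thinning thus placed melanoma cells below CD8 T cells. Among melanoma cells the share was 48.2% in A0304, 21.8% in A0301 and 9.09% to 11.8% in the other 3. In macrophages it was 77.9% in A0304, 73.6% in A0303 and 35.4% to 55.9% in the others. The leading hashtags were those of the CPM. In Cxcl9-positive macrophages the share was 70.9% against 43.3% in Arg1-positive ones, pooled over hashtags. A0303 and A0304, with the largest member shares, gave 178 and 62 Cxcl9-positive barcodes and 11 and 5 Arg1-positive ones. Within hashtags with 20 barcodes on both sides it was 58.9% against 55.9% in A0301, 57.8% against 27.3% in A0305 and 64.4% against 22.6% in A0306. In Foxp3-positive CD4 T cells the share was 53.2% against 32.3% in Foxp3-negative ones, also pooled.

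**Figure D5:**
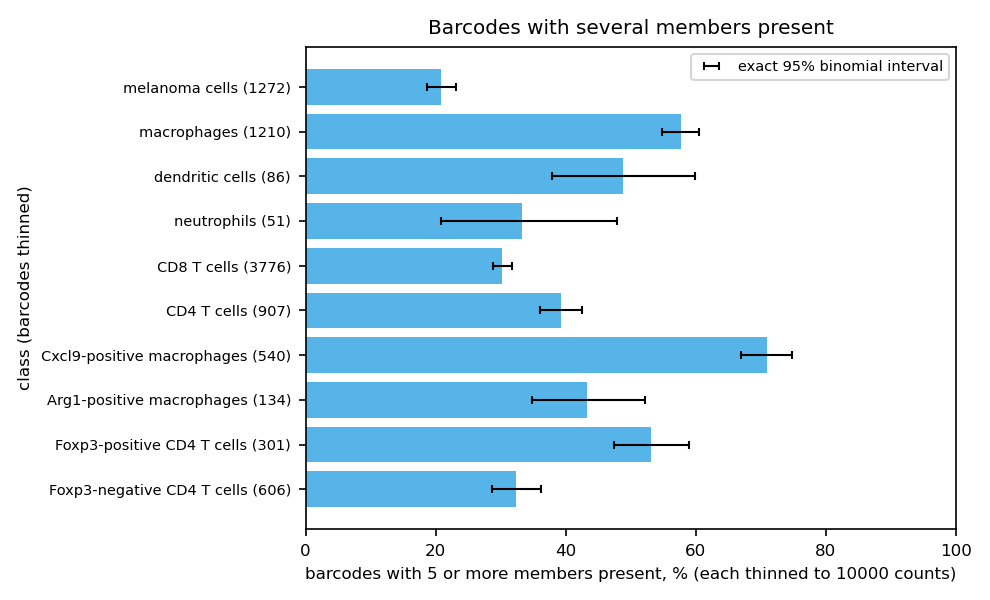
Share of barcodes with 5 or more members present (x axis, percent) by class or state (y axis, with the number of barcodes thinned to 10000 counts). Error bars are exact 95% binomial intervals; Cxcl9-positive macrophages lie at 70.9% and melanoma cells at 20.8%.

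Members tended to be found in the same cells. Over 1272 thinned melanoma cells the median Pearson r between pairs of members was 0.19 (190 pairs), against 0.012 over pairs of all 5876 genes used. It was 0.15 in macrophages (406 pairs in 1210 cells) and 0.10 in CD8 T cells (231 pairs in 3776 cells). Ifit1 with Ifit3 led in melanoma cells (0.52) and CD8 T cells (0.32), and Ifit3 with Rsad2 in macrophages (0.46). These cells share 1 capture and several hashtags, and r is given as a description.

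Genes outside the module were ranked by their correlation over cells with the mean of the members in melanoma cells, macrophages and CD8 T cells. Of the 19 among the leading 30 of at least 2 of these classes, 9 were among the leading 30 of all 3. These were the GTPases Gbp6, Gbp2, Tgtp1, Tgtp2, Iigp1, Igtp and Irgm1, which attack vacuoles of intracellular microbes, the chemokine Cxcl10 and the MHC class I light chain B2m. Tgtp1 reached 0.67 in melanoma cells, 0.36 in macrophages and 0.25 in CD8 T cells. The DNA sensor Ifi204 reached 0.44, 0.49 and 0.30. Among the others were Gm12250, Rnf213, Gbp4, Samhd1, Phf11b, Ly6a, Ifi209 and Slfn1.

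Apart from Ifng, ligand transcripts were scarce. Of 12 ligand genes listed 7 had a row. Ifnb1 had 377 counts in macrophages, at the gate in 12 of 1245 cells, and 26 counts in CD8 T cells, at the gate in 2 of 3985. It had 0 counts in 87 dendritic cells, 113 neutrophils and 981 CD4 T cells, which limits the share of cells with a count, not of cells expressing it, to 3.45%, 2.65% and 0.306%. Ifna2, Ifna4, Ifna5 and Ifnl2 had 0 counts in the 6 classes. Ifng stood at 457 CPM in CD8 T cells, 192 in CD4 T cells, 124 in macrophages and 28.7 in melanoma cells. T cell markers stood at 2066 CPM in these macrophages and 342 in melanoma cells, and their part in the Ifng values was not tested. Which interferon the members answered to was not tested.

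The receptor and its signalling genes were also lower in melanoma cells. Of 11 genes 10 were called lower than in macrophages (20.2% of all genes), with Jak1 at -1.91 and the feedback inhibitor Socs3 at -3.25. Ifnar1 stood at 51.8 CPM in melanoma cells and 142 in macrophages, and Ifnar2, the gene not called, at 78.6 and 124 CPM. Of 13 further sensors and adaptors examined 8 were lower (the same 20.2% of all genes), among them Tmem173 (STING) at -1.90 and Myd88 at -2.94, and Mavs, the adaptor of the RNA sensors, was higher at 1.35. In macrophages against CD8 T cells 2 of 11 receptor and signalling genes were higher, Ifnar2 at 1.75 and Socs3 at 1.30, as were 3 of 12 sensors and adaptors and 7 of 20 genes linked to interferon gamma (11.8% of all genes). In the Foxp3 comparison 0 of 11 were higher (3.39% of all genes), while 5 of 20 genes linked to interferon gamma were, with Iigp1 at 1.15.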

How the data were processed

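The labels' protocols describe 1 BD Rhapsody capture with TAS-Seq libraries of mRNA and of hashtags. The authors deposited whole-number counts per gene or hashtag and barcode. The submitters' processing notes name R 3.5.3, Bowtie2 (2.3.4.1, 2.4.2), cutadapt 2.10 and the build GRCm38, with no role for each. The sources used here do not state whether molecular identifiers were collapsed; the median non-zero count was 7. They do not state a counting strand either.

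Barcodes with at least 500 genes and at most 25% mitochondrial counts were kept. A class needed a fixed number of its markers at 5 counts: 3 of 6 for melanoma cells, 3 of 8 for macrophages, 2 of 7 for dendritic cells, 3 of 7 for neutrophils and 2 of 6 for T cells. A hashtag was called where it raised the log likelihood over the background by at least 3, which gave 6158 of 11318 barcodes, 73.1% of melanoma cells and 44.5% of CD8 T cells. The median kept barcode had 12 hashtag counts. A further 144 kept barcodes were called for hashtags 7 to 12, outside the 6 used. The rate of wrong calls was not estimated. Of 12016 mRNA barcodes 11808 were shared with the hashtag table. No doublet caller was run; barcodes of 2 classes were left out, and those with T cell reads were left out as an alternative. The comparison code was also run on simulated data with planted changes larger than the call size. Those data lacked the spread between real barcodes, so they do not measure how often the reported calls are wrong. Python 3.11.15, numpy 2.4.6, scipy 1.17.1, pandas 2.3.3 and matplotlib 3.10.9 were used.

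The members and lists were chosen with earlier results of these data known. Every member is described by its role group; other genes are named where they were among the leading 30 by correlation with the members in at least 2 of 3 classes, and members where they were among the 3 highest or 3 lowest of a comparison. Pathway genes named as examples were chosen after their values were seen. A gene that meets these rules is not reported here.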

Additional observations from a re-analysis of the deposited data

Results flagged for a closer look

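In 6 of 74 groups of hashtags checked, the highest hashtag lay farther from the next than Dixon's 95% critical value allows (0.71 of the range for 5 hashtags); chance flags about 1 in 20 groups. All 6 were members in melanoma cells, with A0304 highest. Ifit3 stood at 260.3 CPM there and 87.0 CPM in the next hashtag. Ifit3b stood at 62.8 CPM there and 20.4 CPM in the next hashtag. Zbp1 stood at 179 CPM there and 67.6 CPM in the next hashtag. Ifi27l2a stood at 181 CPM there and 56.01 CPM in the next hashtag. Trim30a stood at 93.8 CPM there and 33.7 CPM in the next hashtag. Oas1a stood at 64.8 CPM there and 27.04 CPM in the next hashtag. The members share the 56 cells of that hashtag, so the 6 are not independent.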

How the results depend on the processing

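No alternative reversed a module ratio. Shares over all genes were not computed for the counts of called or highest members under the alternatives. Of the alternatives tried, counts of called members stayed within 1.5 times in 124 and moved further in 23; the cause was not tested. The count for macrophages against CD8 T cells went from 9 to 17 without barcodes of 2 cell types. For dendritic cells it went from 6 to 10 with a gate of 10 counts, 10 with 1 more marker, 13 without barcodes of 2 cell types, 10 without the deepest 5% of barcodes and 10 without the leading 5. For the Cxcl9 and Arg1 states it went from 1 to 3 with a gate of 10 counts, 4 with 1 more marker, 2 with mixed barcodes, 14 without barcodes of 2 cell types, 3 with per-cell means, 3 thinned to 10000 counts and 4 without the leading 5. For the Tcf7 and Havcr2 poles it went from 0 to 1 with per-cell means and 1 thinned to 10000 counts, and for the Foxp3 comparison from 4 to 0 with a gate of 10 counts. The dendritic module ratio of -0.25 became -0.28 with a gate of 10 counts, -0.034 with 1 more marker, -0.18 with mixed barcodes, -0.38 without barcodes of 2 cell types, -0.26 at 10% mitochondrial counts, -0.26 without the deepest 5% of barcodes, -0.33 with per-cell means, -0.30 thinned to 10000 counts, -0.35 with TMM, -0.39 without Bst2 and Ifi27l2a, -0.32 without the leading barcode of each side and -0.41 without the leading 5. The neutrophil ratio of 0.34 became 0.38 with a gate of 10 counts, 0.44 with 1 more marker, 0.28 with mixed barcodes, 0.17 at 10% mitochondrial counts, 0.51 without the deepest 5% of barcodes, 0.44 with per-cell means, 0.74 thinned to 10000 counts, 0.55 with TMM, 0.68 without Bst2 and Ifi27l2a, 0.23 without the leading barcode of each side and 0.019 without the leading 5. Leaving out each hashtag in turn gave 9 to 14 called members for macrophages against CD8 T cells, 20 to 22 called members for melanoma cells against macrophages, 5 to 9 called members for dendritic cells, 17 to 20 called members for neutrophils, 1 to 3 called members for the Cxcl9 and Arg1 states, 0 to 1 called members for the Tcf7 and Havcr2 poles and 3 to 5 called members for the Foxp3 comparison. The module ratios then ran from 0.44 to 0.52 for macrophages against CD8 T cells, from -0.91 to -0.67 for melanoma cells against macrophages, from -0.36 to -0.20 for dendritic cells, from 0.28 to 0.46 for neutrophils, from 0.058 to 0.39 for the Cxcl9 and Arg1 states, from -0.12 to -0.065 for the Tcf7 and Havcr2 poles and from 0.42 to 0.51 for the Foxp3 comparison. At 5000 counts and 1 count per member, 5 or more members were present in 27.1% of melanoma cells, 65.5% of macrophages and 36.0% of CD8 T cells. The pattern TTCNNGGAA, a form of the gamma-activated site, was present for 4 members where the core of the response element was for 14. The 34 members highest in A0304 melanoma cells became 25 to 35 under 7 alternatives. These, and leaving out leading barcodes, were chosen after seeing the data. No paired analysis was possible because no result comes from a test; the ratios within hashtags are part of the rule for a call. Neutrophils and dendritic cells are limited by their numbers of barcodes.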

Other observations

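Small states outside the comparisons gave these levels, with no hashtag check. The module stood at 1248 CPM in 11 macrophage-gated barcodes with most or all of Treml4, Ace and Ear2 (markers of nonclassical monocytes). It stood at 1981 CPM in 19 dendritic cells with Xcr1 or Clec9a and at 3348 CPM in 12 with Ccl22 and Ccr7. The median barcode stood at 2119 CPM in the former dendritic cells and 1124 in the latter, the opposite order. The 17 neutrophils with no macrophage marker at the gate stood at 4989 CPM and the 96 with one at 3817 CPM.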
